A study of Mus musculus with 153 samples.

Results

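The comparison described here set the ribosome-bound RNA of parvalbumin neurons from mice moved to a box that was new to them, with no shock (box), against that of mice left in the home cage, in the set labelled 60 min. It rests on 10 purified libraries, 4 box and 6 home cage, of 153 samples in the series. Members were chosen by the names of the count columns, and 2 home cage columns (numbers 17 and 19 of the table) carry 1 shared name, so they entered as home cage libraries without a replicate number. All mice were labelled Pvalb.Cre/TRAPfl, a genotype in which Cre under the parvalbumin gene switches on a tagged ribosomal protein, and the tissue was dorsal hippocampus. The 60 min lysates of the same conditions (4 box, 6 home cage), the purified libraries of the set labelled 15 min (4 box, 4 home cage) and the purified libraries of mice shocked in the context (6) served for comparison. The labels used here state no age, and the sexes called from Y-linked genes were balanced, with 2 males among the 4 box libraries and 3 among the 6 home cage libraries. Home cage mice were the controls, per the labels' protocols, so the comparison asks what a new place without a shock does to the RNA on the ribosomes of these cells.

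Parvalbumin interneurons are fast-spiking inhibitory cells that make synapses mostly on the cell bodies and initial axon segments of pyramidal neurons. In the hippocampus they pace rhythmic activity and limit which pyramidal cells fire, and their calcium buffer parvalbumin, potassium channels of the Kv3 family and surrounding perineuronal nets are hallmarks of the type. Translating ribosome affinity purification (TRAP) pulls tagged ribosomes out of a tissue lysate, so that the RNA recovered is that bound to ribosomes of the marked cells, with some carry-over from the other cells. Exploration of a new place is known to switch on immediate early genes such as Fos and Arc in hippocampal neurons, with RNA that appears within minutes, and to raise circulating glucocorticoids.

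The purified fraction carried the label's identity. Over the box and home cage libraries, Pvalb was higher than in the lysate by 5.72 on the log2 scale and Gad1, which makes GABA, by 3.40, and 9 of 9 parvalbumin markers and 13 of 13 markers of all GABA neurons were higher (edgeR's quasi-likelihood test, adjusted p under 0.05), beside 26.2% of all genes. Microglial markers were lower in 12 of 12 and astrocyte markers in 11 of 12, beside 28.2% of all genes lower. Ependymal markers were higher in 7 of 8, and 7 of 10 somatostatin neuron markers were higher too. Total counts ran from 81911459 to 170445807 in box and from 99612416 to 204139576 in home cage libraries. Box and home cage libraries overlapped in the summed level of all 14 marker lists: the parvalbumin markers summed to 2320 to 2820 CPM (counts scaled to a common library total) in box and 2230 to 3200 in home cage. Choroid plexus markers summed to between 157 and 8310 CPM in box and between 149 and 10100 in home cage libraries, a spread within both groups. Nothing in the labels says whether each library came from 1 animal or a pool, so the p-values rest on the spread of these libraries, which may be technical in part. In such bulk samples, fewer cells of a type and less RNA per cell cannot be told apart.

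No gene passed the test in the purified fraction after box exposure. Of 16135 genes tested, 0 (0%) reached an adjusted p under 0.05 with edgeR's quasi-likelihood test, and the smallest adjusted p was 0.366. The median standard error of a log2 fold change was 0.29 and the middle 80% of the fold changes lay between -0.60 and 0.67. At an unadjusted p under 0.05 there were 1829 genes (11.3%), of which 1276 (7.91%) had the higher mean in box and 553 (3.43%) the lower. The box and home cage libraries did not overlap for 438 genes (2.71%), 248 (1.54%) higher and 190 (1.18%) lower in box. DESeq2 called 42 genes, 10 higher and 32 lower. Box replicate 3 carried much of the unadjusted count, which was 716 without it. All values that follow for single genes are therefore values with their errors, none of which passed in edgeR.

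The fold changes followed the base composition of the transcripts. In the decile of genes with the lowest GC content (median 39.8%) the median log2 fold change was -0.20 and 25.7% of genes had the higher mean in box, while in the decile with the highest (median 59.9%) it was 0.48 and 85.9% were higher. Of the genes higher in box at an unadjusted p under 0.05, 92.4% lay above the median GC content of all tested genes, against 20.9% of those lower. The lysates did not share this order: there the medians went from 0.09 in the lowest to -0.07 in the highest decile. The slope of a library's levels on GC content was taken in log2 units per 10 percentage points. Its reference was the mean of all purified libraries of the 60 min set, those of shocked mice included. This slope was -0.01, -0.35, 0.23 and -0.12 in box replicates 1 to 4. In the home cage libraries it lay between -0.42 and -0.24, with a mean of -0.31 ± 0.06 (SD, n = 6) against -0.06 ± 0.24 (SD, n = 4) in box. Box replicate 2 thus lay inside the home cage range and the other 3 box libraries above it. An exact two-sided permutation test gave p = 0.0286, and 0.3 after Benjamini-Hochberg adjustment over 21 library measures. Without box replicate 3 the medians of the lowest and highest decile were -0.09 and 0.33. When offsets for GC content and length were fitted per library, they were -0.10 and 0.11, the unadjusted count was 697 higher and 634 lower, and 0 genes passed. The part of GC content in the results below was not tested beyond those offsets, and values with offsets stand beside many of the values without them.

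**Figure D1:**
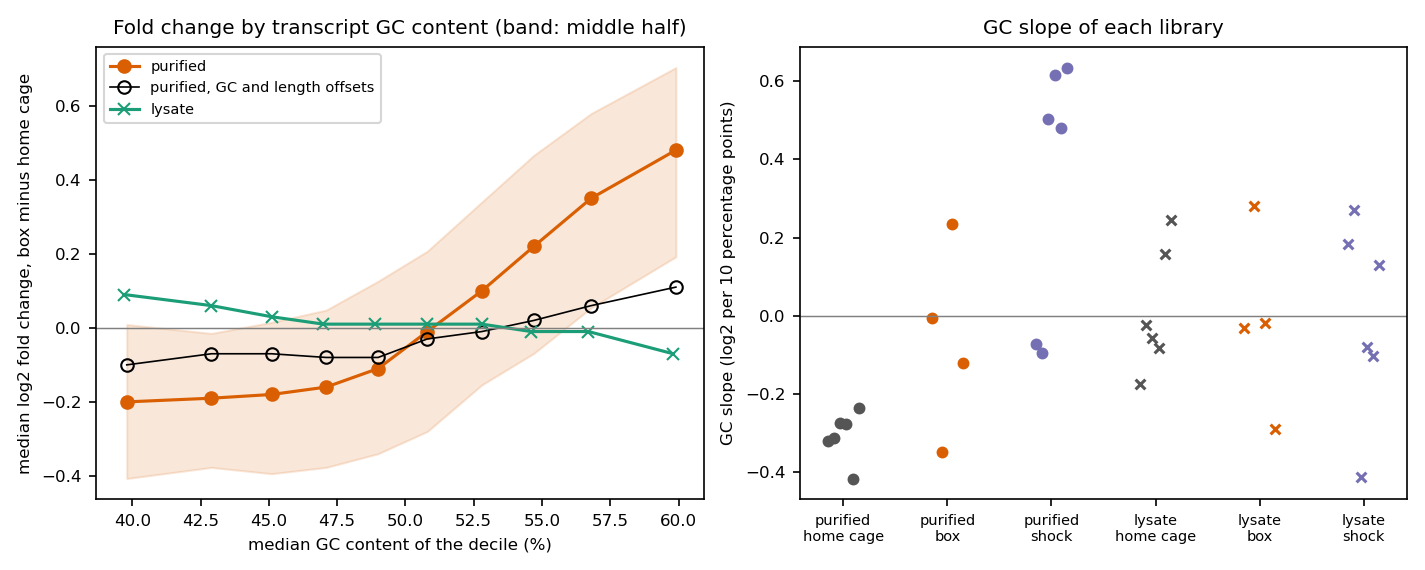
Left, median log2 fold change (box minus home cage, 60 min) in 10 equal groups of genes ordered by transcript GC content (%), for the purified fraction (band: first to last quartile), the lysate, and the purified fraction with GC and length offsets. Right, GC slope of each library (log2 per 10 percentage points, relative to the mean of its fraction over all conditions) by fraction and condition, where each point is a library. The purified medians climb from -0.20 to 0.48, the lysate medians stay between -0.07 and 0.09, and box replicate 2 sits among the home cage libraries.

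The genes with the smallest p among those higher in box came from different processes. Sh3bp4, an SH3-domain adaptor of endocytosis (chr1:89070415-89155068, GRCm38), stood at 4.49, 3.08, 4.49 and 4.6 CPM in the box libraries and between 1.03 and 2.33 (median 1.40) in the home cage libraries. The groups did not overlap, and its log2 fold change was 1.44 ± 0.30 (SE), with an adjusted p of 0.366 in edgeR. Aars2, the mitochondrial alanyl-tRNA synthetase (chr17:45506841-45520843), stood at 25.5, 21.4, 34.5 and 24.5 CPM against 12.1 to 15.9 (median 13.0), again with no overlap, a log2 fold change of 0.91 ± 0.19. With GC and length offsets that of Aars2 was 0.53 ± 0.14. Ccdc124, a ribosome-binding protein (chr8:70868227-70873935), stood at 220, 146, 281 and 189 CPM against 71.8 to 140 (median 103), and its log2 fold change was 0.96 ± 0.24, or 0.60 ± 0.15 with the offsets. Cdk20, a cyclin-dependent kinase tied to primary cilia, stood at 11.5, 8.81, 16.8 and 7.97 CPM against 4.41 to 7.54 (median 5.63). For each of these 4 genes, every box library was above the highest home cage library. Aspscr1, which holds glucose transporter vesicles inside the cell, differed by 0.95 ± 0.25 and Faap100, a subunit of the Fanconi anaemia core complex, by 1.11 ± 0.29 on the log2 scale (0.72 ± 0.23 with offsets), each with box replicate 2 inside the home cage range. With offsets the log2 fold change was 1.26 ± 0.31 for Sh3bp4, 0.985 ± 0.23 for Cdk20 (0.97 ± 0.25 without) and 0.92 ± 0.23 for Aspscr1.

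The genes with the smallest p among those lower in box included a sodium channel subunit and enzymes of lipid, RNA and protein phosphate metabolism. Zfp810, a zinc finger gene (chr9:22276748-22307648), stood at 14.4, 13.0, 11.4 and 7.06 CPM in box and between 17 and 44.9 (median 29.3) in home cage libraries, a log2 fold change of -1.37 ± 0.32. Pik3c2b, a class II phosphoinositide 3-kinase (chr1:133045667-133108687), stood at 4.51, 3.15, 4.14 and 2.95 CPM against 6.74 to 12.3 (median 8.21), a log2 fold change of -1.30 ± 0.31. Both genes were without overlap. Scn3b, an auxiliary subunit of voltage-gated sodium channels (chr9:40269217-40291618), stood at 123, 81.4, 92.7 and 89.4 CPM against 118 to 191 (median 154), so that box replicate 1 overlapped the home cage libraries. Its log2 fold change was -0.70 ± 0.17. Serpinb1a, an inhibitor of serine proteases, differed by -1.28 ± 0.33 and Parn, a poly(A)-specific ribonuclease, by -0.99 ± 0.26 on the log2 scale, each with 1 box library inside the home cage range. Ppp2cb, a catalytic subunit of protein phosphatase 2A (chr8:33599625-33619441), stood at 107, 119, 104 and 128 CPM against 150 to 177 (median 165), a narrow range in both groups with no overlap and a log2 fold change of -0.55 ± 0.14. In the lysate its log2 fold change was close to that, -0.53 ± 0.16, whereas that of Zfp810 was -0.10 ± 0.25 and that of Pik3c2b -0.14 ± 0.25 there. With GC and length offsets the purified values were -1.26 ± 0.30 for Zfp810, -1.44 ± 0.32 for Pik3c2b and -0.635 ± 0.155 for Scn3b. Those of Serpinb1a and Ppp2cb were -1.16 ± 0.29 and -0.695 ± 0.184. These 12 genes were chosen for their small p in this comparison, so their values are a description; DESeq2 called 8 of the 12, that is all but Ccdc124, Aspscr1, Faap100 and Ppp2cb.

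**Figure D2:**
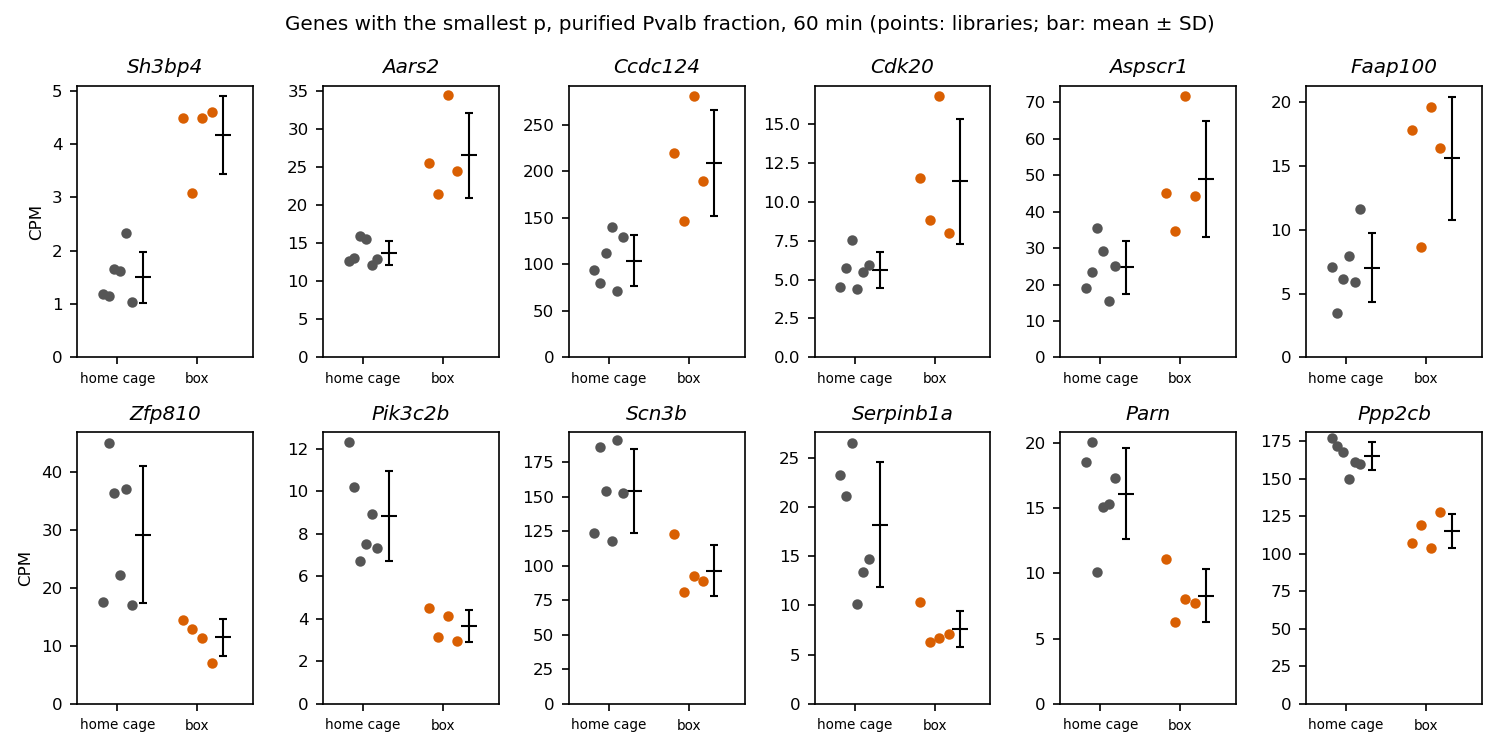
CPM of the 6 genes higher and the 6 lower in box with the smallest p, in 6 home cage (grey) and 4 box (orange) purified libraries of the 60 min set. Points are libraries, the bar beside them is the mean ± SD, and each vertical axis starts at 0. Box and home cage points are apart for Sh3bp4, Aars2, Ccdc124, Cdk20, Zfp810, Pik3c2b and Ppp2cb.

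Rapid activity genes, which neurons transcribe within minutes of firing, had the higher mean in box in 23 of 32, with a median log2 fold change of 0.30 against -0.02 over all genes. At an unadjusted p under 0.05, 8 were higher and 0 lower, beside 7.91% and 3.43% of all genes, and 0 passed. With GC and length offsets 17 of 32 were higher and the median was 0.16. At that level 1 was then higher and 0 lower, beside 697 and 634 of all 16135 genes. Arc, whose protein shapes synaptic strength, stood at 76.0, 34.8, 146 and 129 CPM in box and between 44.7 and 82.4 (median 49.2) in home cage libraries. Box replicates 3 and 4 were above every home cage library and box replicate 2 below all of them. The log2 fold change of Arc was 0.77 ± 0.30 (edgeR, adjusted p = 0.368), or 0.36 ± 0.21 with offsets. Fos, a subunit of the AP-1 transcription factor, stood at 42.8, 27.3, 54.3 and 51.7 CPM against 20 to 49.5 (median 34.3), a log2 fold change of 0.35 ± 0.27. Gadd45g, a growth-arrest and DNA-damage gene, differed by 0.87 ± 0.30 (0.49 ± 0.21 with offsets) and Jund, another AP-1 subunit, by 0.58 ± 0.21 (0.17 ± 0.12 with offsets). Both have GC-rich transcripts, at 59.9% and 67.1%.

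Egr1, Nr4a1 and Bdnf had fold changes smaller than their errors without offsets. Egr1, a zinc finger transcription factor, stood at 116, 66.7, 96.8 and 105 CPM against 68.1 to 107 (median 89.3), and Nr4a1, an orphan nuclear receptor, at 22.8, 18.6, 39.0 and 37.7 CPM against 26.4 to 32.8 (median 28.6). Their log2 fold changes were 0.10 ± 0.20 and -0.01 ± 0.23, or -0.18 ± 0.26 and -0.34 ± 0.21 with offsets. Bdnf, a neurotrophin gene, differed by 0.08 ± 0.21 (0.21 ± 0.20 with offsets). Npas4, a transcription factor induced by calcium entry, was near the floor of the measurement, at 0.22 to 0.997 CPM in box and 0.26 to 2.63 in home cage libraries. Delayed activity genes were higher in 13 of 26 with a median of -0.01 (11 of 26 and -0.08 with offsets), and none had an unadjusted p under 0.05. Of the genes that feed back on MAP kinase signalling, 9 of 16 were higher with a median of 0.15, or 7 of 16 with a median of -0.06 with offsets. Dusp5, a phosphatase of ERK, differed by 0.69 ± 0.33 (0.36 ± 0.27 with offsets). Kcna1, a potassium channel subunit listed among the delayed genes, stood at 544, 612, 376 and 539 CPM against 643 to 749 (median 674), below every home cage library, with a log2 fold change of -0.43 ± 0.22.

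Genes induced by glucocorticoids had the higher mean in 15 of 20, with a median log2 fold change of 0.33. At an unadjusted p under 0.05, 5 were higher and 0 lower, beside 7.91% and 3.43% of all genes. With offsets 13 had the higher mean with a median of 0.10. At that level 2 were then higher and 0 lower, beside 697 and 634 of all 16135 genes. Sgk1, a kinase long used as a readout of the glucocorticoid receptor, stood at 61.8, 84.4, 116 and 99.3 CPM in box against 54.4 to 71.3 (median 58.0) in home cage libraries. Box replicates 2, 3 and 4 were above every home cage library. Its log2 fold change was 0.56 ± 0.19 (edgeR, adjusted p = 0.366) and 0.58 ± 0.17 with offsets. Errfi1, a feedback inhibitor of epidermal growth factor receptors, stood at 90.9, 85.0, 75.2 and 71.4 CPM against 49.2 to 79.8 (median 56.7), a log2 fold change of 0.42 ± 0.15 and 0.48 ± 0.15 with offsets. In the lysate 15 of 20 members were higher as well, with a median of 0.20, and Sgk1 stood at 212, 239, 319 and 328 CPM in box against 90.6 to 247 (median 159), a log2 fold change of 0.78 ± 0.27. Among circadian clock genes 13 of 22 were higher: Bhlhe41, a repressor of the clock, stood at 18.9 to 26.6 CPM against 27.1 to 73.3, and Dbp, an output factor, differed by 0.66 ± 0.26 (0.23 ± 0.18 with offsets).

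**Figure D3:**
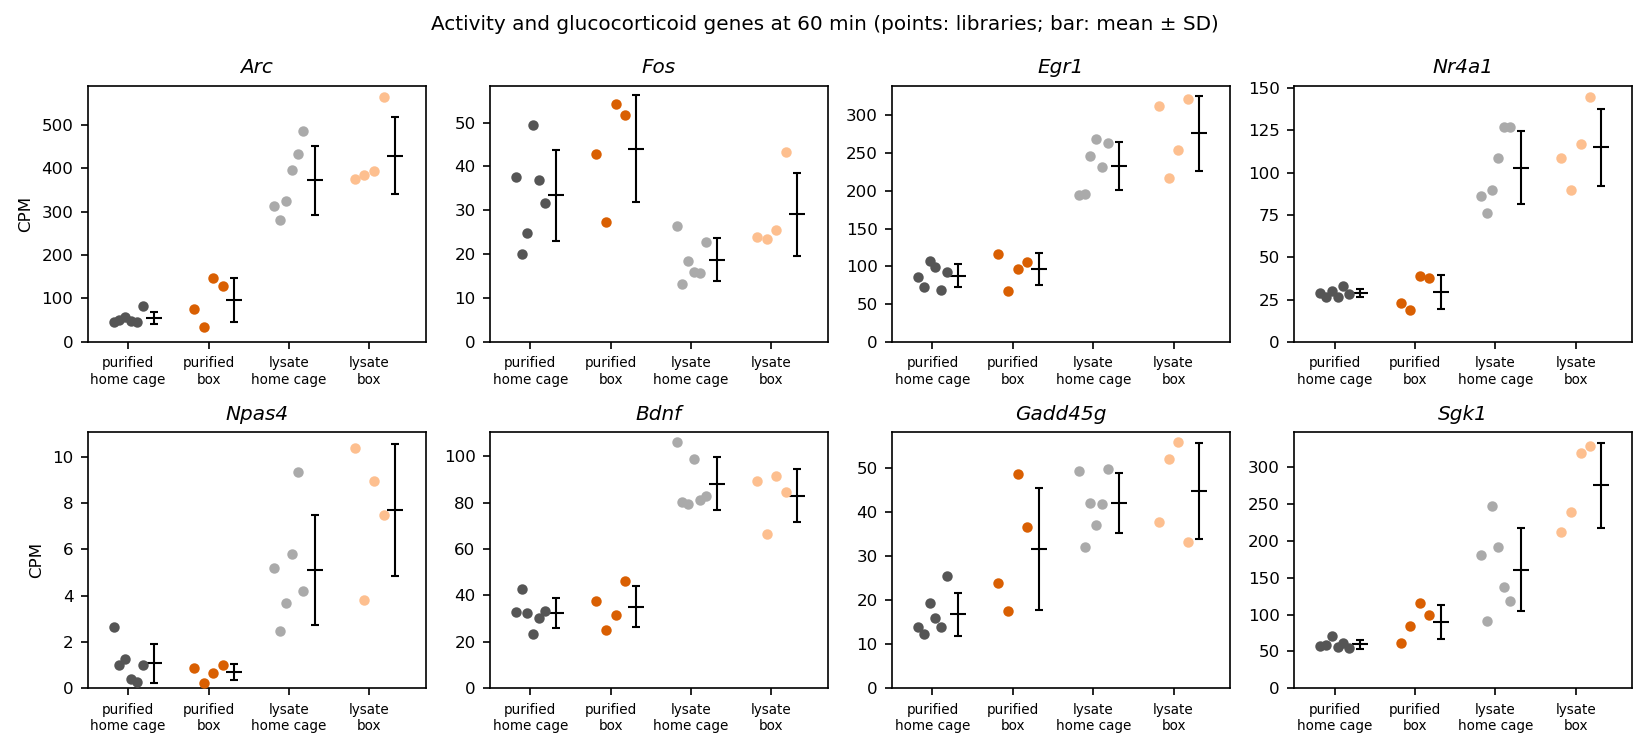
CPM of 6 activity genes, of Gadd45g and of the glucocorticoid-induced Sgk1 in the purified fraction and the lysate of the 60 min set, home cage (6 libraries each) and box (4 each). Points are libraries and the bar is the mean ± SD, with each vertical axis starting at 0. The box points of Arc in the purified fraction run from 34.8 to 146, on both sides of the home cage points, while 3 of 4 for Sgk1 lie above them.

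Without offsets, chaperone and stress genes leaned to the higher mean in box, and none passed. Cytosolic heat shock chaperones were higher in 14 of 21 (median 0.10), where Hsf1, the master transcription factor of the heat shock response, differed by 0.71 ± 0.26 and Hspa1a, the inducible Hsp70, by 0.61 ± 0.24 (0.32 ± 0.31 with offsets). Endoplasmic reticulum chaperones were higher in 13 of 19 (median 0.14) in the purified fraction and in 19 of 19 (median 0.39) in the lysate, where 4 were higher at an unadjusted p under 0.05, beside 1.51% of all genes, and 0 passed. Creld2, a chaperone of the unfolded protein response, stood at 31.7, 36.8, 76.4 and 44.2 CPM in box against 18 to 47.4 (median 23.9). Box replicate 3 was above all home cage libraries. Targets of ATF4, the factor of the integrated stress response that responds when translation initiation slows, were higher in 16 of 22 (median 0.23), or 11 of 22 (median 0.02) with offsets. Sesn2, a leucine sensor upstream of mTORC1, stood at 10.7, 7.28, 14.6 and 11.2 CPM against 4.24 to 7.76 (median 5.88), a log2 fold change of 0.83 ± 0.27 and 0.47 ± 0.19 with offsets. Cebpb, a partner of ATF4, differed by 0.88 ± 0.28 (0.46 ± 0.18 with offsets).

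The translation apparatus was split. Cytosolic ribosomal protein genes had the higher mean in box in 49 of 85 in the purified fraction (median 0.15), where 25 were higher and 7 lower at an unadjusted p under 0.05, beside 7.91% and 3.43% of all genes. In the lysate 5 of 85 were higher (median -0.29), where 0 were higher and 25 lower at that level, beside 1.51% and 1.93% of all genes. The difference between the 2 fractions was above 0 for 71 of 85 (median 0.43), of which 40 had an unadjusted p under 0.05 in that direction, beside 7.83% of all genes, and 0 passed. Over all genes, lysate fold changes ran with transcript length, with a median of -0.15 in the decile of shortest transcripts and 0.06 in the longest. In the purified fraction these medians were 0.11 and -0.14. No offsets were fitted for the lysate, and the part of length in the difference between fractions was not tested. With GC and length offsets the purified median of the ribosomal protein genes was 0.02 and 43 of 85 were higher. At an unadjusted p under 0.05, 22 were then higher and 6 lower, beside 697 and 634 of all 16135 genes. Rpl18 and Rpl36, proteins of the large subunit, stood at 51.4 to 103 and 46.2 to 82.2 CPM in box against 27.6 to 53.9 and 23.9 to 49.1 in home cage libraries. Their log2 fold changes were 0.92 ± 0.25 and 0.89 ± 0.25 in the purified fraction (0.77 ± 0.19 and 0.56 ± 0.17 with offsets) and -0.20 ± 0.13 and -0.39 ± 0.19 in the lysate. Values of ribosomal protein genes are uncertain, since reads may be shared with their many near-identical pseudogenes.

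Translation factors were higher in 26 of 58 (median -0.05). Eef2, the translocase of elongation, stood at 519, 338, 619 and 428 CPM against 244 to 343 (median 310), a log2 fold change of 0.62 ± 0.21 and 0.30 ± 0.12 with offsets, and Eef1d, an elongation factor subunit, differed by 0.74 ± 0.23. In the mTOR pathway 17 of 33 were higher (median 0.01), and Akt1s1, an inhibitory subunit of mTORC1, stood at 41.4 to 81.3 CPM against 26.7 to 41.2, or 0.73 ± 0.22 on the log2 scale (0.33 ± 0.12 with offsets). Prkag2, a regulatory subunit of AMPK, differed by -0.47 ± 0.18, in a list of which 6 of 13 were higher. The respiratory chain and ATP synthase were higher in 42 of 76 (median 0.05), with 15 higher and 0 lower at an unadjusted p under 0.05, beside 7.91% and 3.43% of all genes. With offsets 39 of 76 had the higher mean (median 0.01). At that level 11 were then higher and 2 lower, beside 697 and 634 of all 16135 genes. In the lysate 9 of 76 were higher (median -0.16), and the part of transcript length in that count was not tested. Ndufb7, a subunit of complex I, stood at 351, 231, 416 and 326 CPM against 129 to 249 (median 175), and Atp5d, a subunit of ATP synthase, differed by 0.77 ± 0.24 (0.41 ± 0.14 with offsets). Mitochondrial ribosomal proteins were higher in 41 of 77 (median 0.01, or 0.03 with offsets), with Mrpl4 at 70.1 to 135 CPM against 43.3 to 69.0, a pair of ranges without overlap.

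Proteasome subunits were higher in 17 of 33 (median 0.02), with 4 higher and 5 lower at an unadjusted p under 0.05, beside 7.91% and 3.43% of all genes. With offsets 14 of 33 had the higher mean (median -0.02). At that level 1 was then higher and 4 lower, beside 697 and 634 of all 16135 genes. Psmb7 stood at 117, 95.5, 101 and 107 CPM against 118 to 167 (median 132), below every home cage library, and Psma2 at 268 to 388 against 387 to 496. Both are subunits of the 20S core, with transcripts of low GC content (40.8% and 39.4%). Cholesterol synthesis genes were higher in 8 of 22 (median -0.13), with 4 higher and 0 lower at that level, beside 7.91% and 3.43% of all genes. With offsets 3 were higher and 1 lower, beside 697 and 634 of all 16135 genes. Pmvk, an enzyme of the mevalonate pathway, differed by 0.84 ± 0.24 (0.53 ± 0.15 with offsets) and Srebf2, the factor that switches the pathway on, by 0.68 ± 0.24 (0.37 ± 0.16 with offsets).

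**Figure D4:**
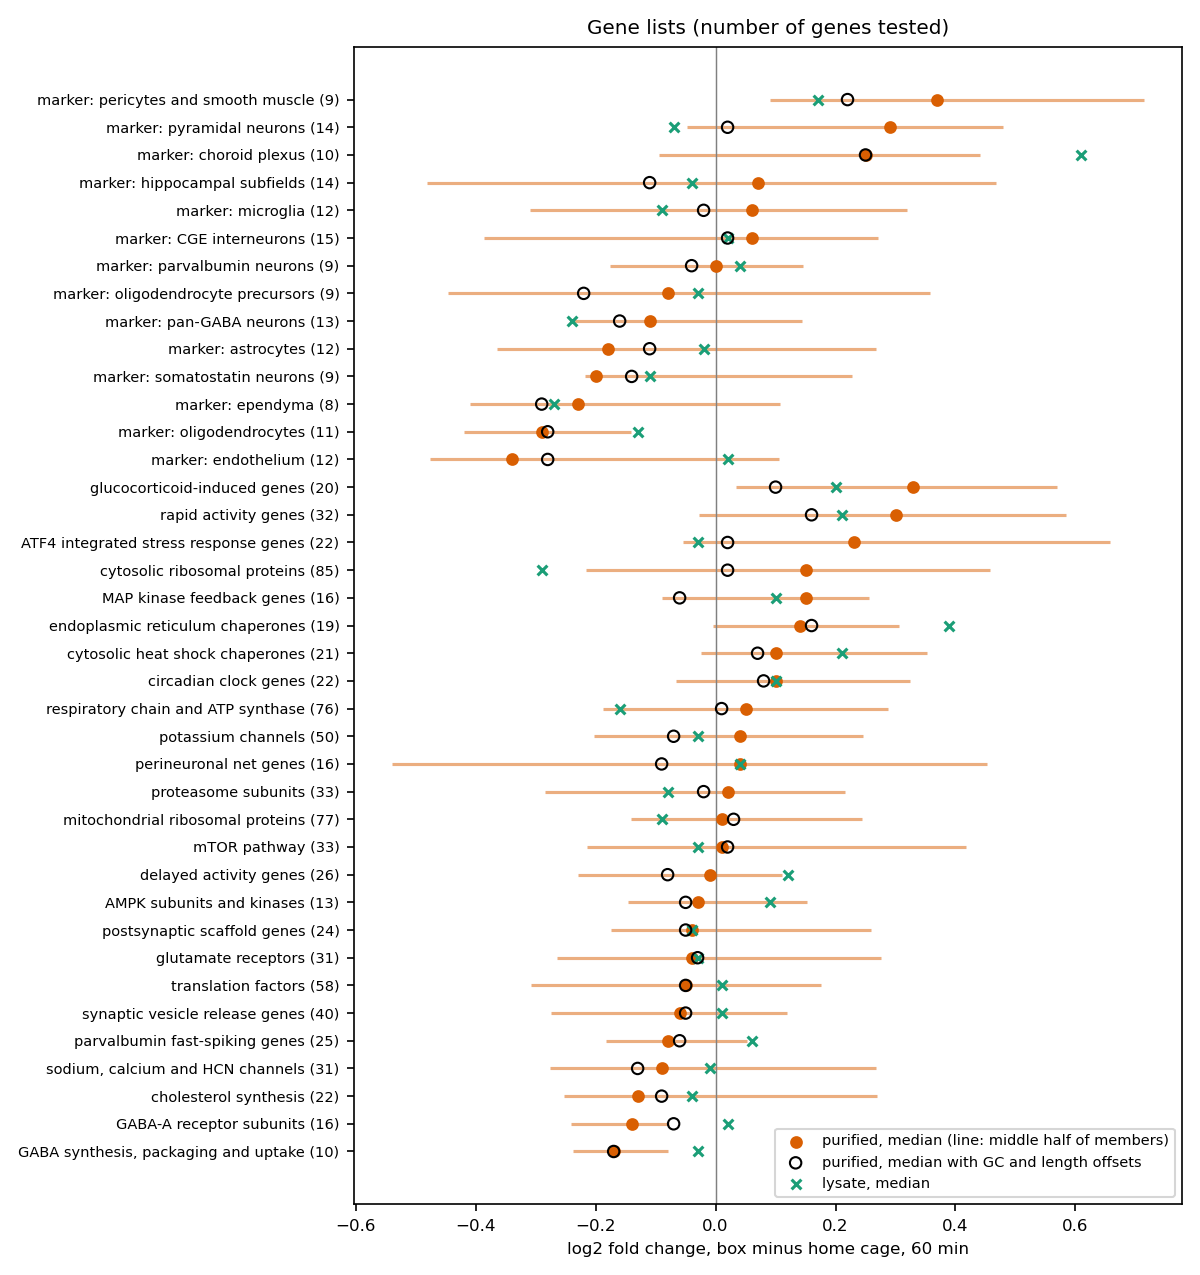
Median log2 fold change (box minus home cage, 60 min) of each gene list, with the number of genes tested, in the purified fraction (orange, line: first to last quartile), with GC and length offsets (open circles) and in the lysate (crosses). The purified medians of the glucocorticoid (0.33), rapid activity (0.30) and ATF4 (0.23) lists move towards 0 with the offsets, and cytosolic ribosomal proteins stand at 0.15 in the purified fraction and -0.29 in the lysate.

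Pvalb and Gad1 differed by less than their errors without offsets. Pvalb stood at 936, 648, 782 and 783 CPM in box against 612 to 902 (median 781) in home cage libraries, a log2 fold change of -0.01 ± 0.14 (edgeR, adjusted p = 0.992). Gad1 stood at 2490, 4380, 2730 and 3240 CPM against 2630 to 3870 (median 3400), and Gad2, the second GABA-making enzyme, at 370 to 764 against 575 to 808. Cox6a2, a muscle-type subunit of the respiratory chain and a marker on the parvalbumin list, stood at 186, 125, 197 and 188 CPM against 76.3 to 137, a log2 fold change of 0.78 ± 0.24 (0.67 ± 0.22 with offsets). Dlx2, a transcription factor of GABA neurons on the list of their markers, differed by 0.70 ± 0.26 (0.37 ± 0.25 with offsets). Of the 9 parvalbumin markers 5 had the higher mean in box (median 0.00), or 4 (median -0.04) with offsets. Of the 13 markers of all GABA neurons 5 had the higher mean (median -0.11), or 4 (median -0.16) with offsets. Slc32a1, which loads GABA into vesicles, differed by -0.11 ± 0.22 (-0.44 ± 0.32 with offsets), and in the lysate by -0.64 ± 0.23. Genes of GABA synthesis, packaging and uptake had the higher mean in box in 1 of 10 (median -0.17), and 0 of the 10 had an unadjusted p under 0.05. GABA-A receptor subunits were higher in 2 of 16 (median -0.14), or 4 of 16 (median -0.07) with offsets. Gabrd, the delta subunit of receptors outside the synapse, stood at 90.9, 70.6, 124 and 83.5 CPM against 47.5 to 70.8 (median 60.7), a log2 fold change of 0.58 ± 0.22 (0.35 ± 0.15 with offsets), and Gabrb1, a beta subunit, differed by -0.51 ± 0.24 (-0.28 ± 0.21 with offsets). Sst, a peptide of a neighbouring interneuron class, stood at 687, 497, 361 and 401 CPM against 183 to 465 (median 315), or 0.51 ± 0.23 (0.32 ± 0.24 with offsets), while the summed somatostatin neuron markers were 2060 to 3070 CPM in box and 2090 to 2790 in home cage libraries.

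Glutamate receptors were higher in 14 of 31 (median -0.04). Grin2d, an NMDA receptor subunit typical of interneurons, stood at 9.78, 7.47, 16.9 and 8.63 CPM against 3.24 to 7.07 (median 5.09), all box libraries above all home cage libraries. The log2 fold change of Grin2d was 1.03 ± 0.29 (edgeR, adjusted p = 0.366) and 0.63 ± 0.21 with offsets. Grm3, a metabotropic receptor found mostly in astrocytes, stood at 18, 9.93, 11.9 and 16.8 CPM against 19.8 to 30.3 (median 23.0), all below, with a log2 fold change of -0.76 ± 0.25. The summed astrocyte markers were 1350 to 1650 CPM in box and 1620 to 2270 in home cage libraries (exact two-sided permutation p = 0.0286, 0.3 adjusted over 21 library measures). Slc1a3 and Slc1a2, the glutamate transporters of astrocytes, differed by -0.49 ± 0.15 and -0.51 ± 0.22 (-0.33 ± 0.15 with offsets). Of the 12 astrocyte markers, 4 had the higher mean in box and 8 the lower (median -0.18). The part of astrocyte RNA in the value of Grm3 was not tested.

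Channel, scaffold and matrix genes went both ways. Potassium channels were higher in 27 of 50 (median 0.04), or 23 of 50 (median -0.07) with offsets: Kcnj9, a G-protein-gated channel, differed by 0.71 ± 0.27 (0.38 ± 0.20 with offsets) and Kcna4 by -0.95 ± 0.36. Sodium, calcium and HCN channels were higher in 12 of 31 (median -0.09), where Scn2b, an auxiliary sodium channel subunit, stood at 374, 342, 330 and 302 CPM against 354 to 636 (median 462), a log2 fold change of -0.51 ± 0.17. Fast-spiking genes of parvalbumin neurons were higher in 10 of 25 (median -0.08), with none at an unadjusted p under 0.05. Among perineuronal net genes, 8 of 16 were higher, and Ncan, a proteoglycan of the net made by astrocytes and neurons, stood at 115, 64.3, 104 and 90.1 CPM against 68.0 to 221 (median 146), or -0.77 ± 0.25. Scaffold genes were higher in 11 of 24: Pick1, which traffics AMPA receptors, differed by 0.62 ± 0.21, and Dlg2, a PSD-95 relative, by -0.59 ± 0.22. Of the vesicle release genes 17 of 40 were higher, with Stx1a, a membrane SNARE, at 0.82 ± 0.30 (0.45 ± 0.22 with offsets) and Napb, which recycles SNAREs, at -0.37 ± 0.15.

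**Figure D5:**
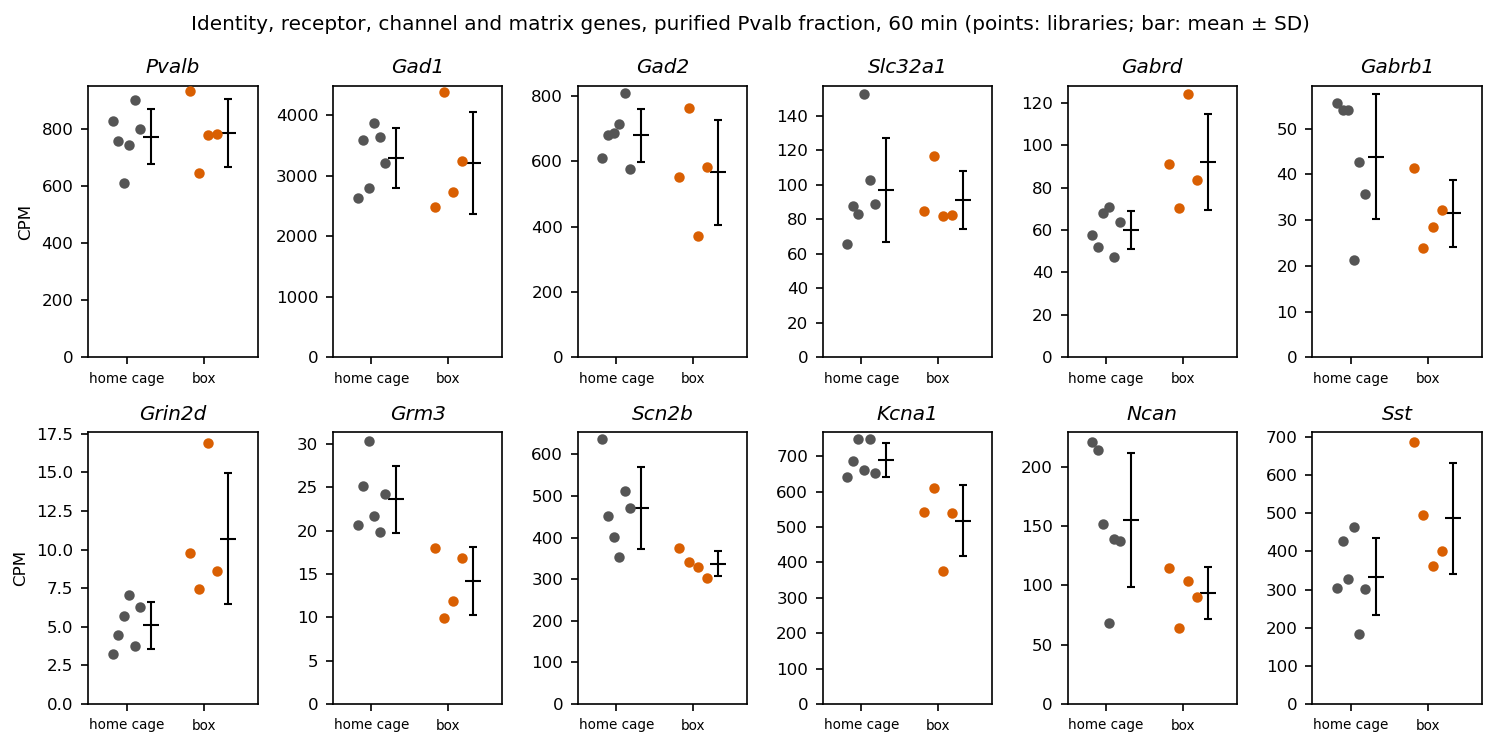
CPM of identity, receptor, channel and matrix genes in 6 home cage (grey) and 4 box (orange) purified libraries of the 60 min set. Points are libraries, the bar is the mean ± SD, and each vertical axis starts at 0. Box and home cage points are apart for Grin2d, Grm3 and Kcna1, and mixed for Pvalb, Gad1, Gad2 and Slc32a1.

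The lysate, which holds RNA of all cells of the tissue, differed less. Of 16606 genes, 0 passed in edgeR, 572 (3.44%) had an unadjusted p under 0.05 and DESeq2 called 4. Total counts of the lysate box libraries ran from 18369550, in replicate 2, to 90483336. A test of the difference between the box effects of the 2 fractions passed for 0 of 17167 genes in edgeR, with 1672 (9.74%) at an unadjusted p under 0.05 and 60 called by DESeq2. The genes with the smallest p for a larger value in the purified fraction included Rpl18, Rpl36, Ten1, a telomere-binding protein, and Hist3h2ba, a histone H2B. Hist3h2ba stood at 7.59, 9.69, 9.84 and 8.92 CPM in purified box against 3.03 to 6.10 (median 5.22) in purified home cage libraries, with log2 fold changes of 0.86 ± 0.26 there and -0.46 ± 0.22 in the lysate. Fos was the reverse in order, with 0.65 ± 0.21 in the lysate and 0.35 ± 0.27 in the purified fraction, and a difference of -0.27 ± 0.36 (edgeR, adjusted p = 0.932).

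In the 15 min set, 0 of 15484 genes passed in edgeR between purified box and home cage libraries, and 260 (1.68%) had an unadjusted p under 0.05. Rapid activity genes were higher in 23 of 32 with a median of 0.28, and Fos stood at 53.0, 73.1, 34.3 and 30.4 CPM in box against 17.4, 33.9, 24.9 and 20.3 in the home cage. The log2 fold changes at 15 min were 0.94 ± 0.29 for Fos, 1.07 ± 0.41 for Arc, 0.64 ± 0.21 for Egr1 and 0.75 ± 0.29 for Nr4a1, against 0.35, 0.77, 0.10 and -0.01 at 60 min, all without offsets. No GC slopes or offsets were computed for the 15 min set, so the part of GC content in these values was not tested. Box replicate 2 of the 15 min set, which had the highest Fos, stood apart in purity. Its mean log2 level of parvalbumin and GABA neuron markers was 0.80 above that of the marker lists of other cells, against 1.64 to 2.56 in the other 7 libraries. Without it the log2 fold changes were 0.71 ± 0.29 for Fos, 1.0 ± 0.44 for Arc, 0.61 ± 0.23 for Egr1 and 0.52 ± 0.29 for Nr4a1, and the median of the 32 rapid activity genes was 0.11 with 23 higher. This library was left out after its values were seen; 0 of 15845 genes passed in edgeR and 340 had an unadjusted p under 0.05. The difference between the sets passed for 0 of 16642 genes in edgeR, with 1023 (6.15%) at an unadjusted p under 0.05 and 182 called by DESeq2. The sets were in separate tables, so time and set cannot be told apart.

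Shocked mice were compared with the same home cage libraries, and the 2 comparisons share them. With edgeR 5655 of 16135 genes (35%) passed for shock against home cage, and 0 passed for shock against box, of which 3306 (20.5%) had an unadjusted p under 0.05. The mean CPM in home cage, box and shock libraries was 1.5, 4.17 and 6.75 for Sh3bp4, 104, 209 and 325 for Ccdc124, and 54.8, 96.6 and 123 for Arc. Other genes did not follow that order: the means were 59.9, 90.4 and 71.7 for Sgk1, 59.2, 80.6 and 71.4 for Errfi1, 10.2, 15.8 and 10.2 for Hspa1a, and 33.4, 44 and 41.9 for Fos. The GC slope of the shock libraries was 0.34 ± 0.34 (SD, n = 6), with 2 of the 6 at -0.09 and -0.07 and 4 between 0.48 and 0.64. The fold changes of shock against home cage also followed GC content. In the decile of lowest GC content 7.86% of genes had the higher mean in shock, and in the highest 91%. For box against home cage these shares were 25.7% and 85.9%. The part of GC content in the count of genes that passed for shock, and in the means above, was not tested.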

How the data were processed

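The authors deposited raw counts of reads for each gene symbol, as 1 table per line and time set. Those of the Pvalb sets at 60 and 15 min were read (24391 genes, 0 mitochondrially encoded). Every sample column was given a group. The 2 purified home cage columns that share a name could not each be tied to a sample. A home cage lysate column of the 15 min set matched no sample label. The 15 min lysate columns entered no comparison. Per the labels' protocols, polyA RNA came from the RNeasy Mini kit and libraries from Nextera XT, which does not mark the strand, so antisense and overlapping genes cannot be told apart. The tools named in the submitters' processing notes are DESeq2, featureCounts and STAR 2.7.7a, with the build GRCm38; no source used here gives the annotation that was counted.

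The quasi-likelihood test of edgeR 4.0.16 (R 4.3.3) was run on the counts (filterByExpr, TMM, robust quasi-likelihood fit, Benjamini-Hochberg adjustment over all genes tested, threshold 0.05), with the 3 purified conditions of the 60 min table in 1 fit. Standard errors were taken as the size of the log2 fold change over the root of the F value. CPM use all counts of a library, and log2 CPM for library slopes had 1 added. GC content and length were those of the longest transcript in GENCODE M21 (GRCm38), found for 96.2% of tested genes; the offsets were splines with 5 degrees of freedom. DESeq2 1.42.0 and the other alternatives are in the closing section. Only the main purified fit was tried on simulated counts. Those counts held no trend with GC content, so they cannot speak to that trend or to the other fits. No 2 libraries of a group agreed within sampling noise (smallest reduced chi-square 171 among purified libraries). The comparison, members and gene lists were chosen with earlier results of these data known. Named genes are those of smallest p by direction overall (6), per list (2) and per difference (4), plus Pvalb, Gad1, Gad2, Slc32a1, Sst, Fos, Arc, Npas4, Egr1, Nr4a1 and Bdnf; not every such gene is reported here, and predicted and sex-linked genes were not named.

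Between fractions, the called sex differed for 0 of 4 box, 2 of 4 home cage and 2 of 6 shock numbers, so a number as printed does not mark 1 animal in every case. In column order, each home cage lysate was followed by a purified library of the same called sex. Purified home cage numbers 2, 3, 4 and 6 correlated best with lysate numbers 1, 2, 3 and 6 (0.32, 0.09, 0.23 and 0.23). Whether the purified home cage numbers were shifted was not tested.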

Additional observations from a re-analysis of the deposited data

Results flagged for a closer look

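A library far from the rest of its group was seen in 10 of 202 sets examined (Dixon's test, which chance alone passes in about 1 of 20). Each set was a gene or a library measure, such as a marker sum, in a group, and all 10 were single genes. In box replicate 2, Sh3bp4 stood at 3.08 CPM (others 4.49 to 4.6), Slc32a1 at 117 (82.1 to 84.6), Cox6a2 at 125 (186 to 197) and Neurod1 at 66.3 (22.6 to 25.4). In box replicate 4, Vip stood at 15.4 CPM (6.71 to 8.13). In home cage replicate 6, Arc stood at 82.4 CPM (44.7 to 57.4), Creld2 at 47.4 (18 to 28.1) and Sdf2l1 at 74.9 (19.1 to 38.4). Home cage replicate 2 had Bhlhe41 at 73.3 CPM (27.1 to 37.8), and home cage replicate 3 had Kcna4 at 36.9 (10.5 to 20.3).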

How the results depend on the processing

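The count of 0 genes for box against home cage in the purified fraction held with DESeq2's size factors in edgeR, no filter, and a filter of 1 CPM in 4 libraries. It held with sex or the purity score as covariate, GC and length offsets, box and home cage libraries alone, and each library left out. Genes at an unadjusted p under 0.05 numbered 716 to 2343 with each library left out. They numbered 2654 with the purity score, 2537 with box and home cage libraries alone and 2489 with no filter. The smallest adjusted p in edgeR was 0.366 in the main fit and 0.127 with box and home cage libraries alone. DESeq2 called 42 genes for box against home cage in the purified fraction, 4 in the lysate, 60 for the difference between fractions and 182 for that between time sets, where edgeR called 0 in each. The cause was not tested. With the replicate number as a block, edgeR called 0 genes in each of the 4 comparisons, with 2516 at an unadjusted p under 0.05 in the main one. Deviations of same-numbered box and home cage libraries correlated at -0.08 to -0.04 over 3 numbers, and 0 of 3 box libraries correlated best with their own number. The block and these correlations used the numbers as printed. For 2 of 4 home cage numbers the called sex differed between fractions, so they cannot decide whether a number marks a shared batch.

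Small log2 fold changes turned sign. Under the replicate block Egr1 was -0.07, Nr4a1 0.10, Bdnf -0.09, Pvalb 0.04 and Slc32a1 0.08. With no filter Nr4a1 and Pvalb were both 0.03, with box and home cage libraries alone both 0.02, and with the purity score Nr4a1 was 0.01. With offsets Egr1 was -0.18 and Pvalb 0.02. Without the 2 columns that share a name, Nr4a1 was 0.04, Bdnf -0.01, Pvalb 0.07, Gad1 0.09 and Slc32a1 0.19. Leaving out 1 library at a time gave -0.15 to 0.14 for Nr4a1, -0.01 to 0.22 for Egr1, -0.28 to 0.05 for Gad1, -0.11 to 0.05 for Pvalb, -0.28 to 0.11 for Slc32a1 and -0.07 to 0.20 for Bdnf. These causes were not tested.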
